A study of Saccharomyces cerevisiae with 24 samples.

Results

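The mRNAs of 40 translation factors of budding yeast, Saccharomyces cerevisiae, were followed after galactose was added to cultures of 2 strains. The 40 genes were listed by function: they encode initiation factors, elongation factors, release and recycling factors, and TMA19, the yeast relative of a human tumour protein that associates with ribosomes. Probe sets were taken through the gene symbols of the platform annotation, keeping for each gene its brightest set. All 40 genes were measured, in 37 entries of the 5859 features tested, where a feature is a gene or a group of genes that share a probe set. The paralog pairs TIF1/TIF2, TEF1/TEF2 and EFT1/EFT2 share a probe set each, so each pair gave 1 value that cannot be assigned to either gene.

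Translation starts when the cap-binding complex eIF4F recruits an mRNA to a 40S ribosomal subunit that carries eIF3, eIF1, eIF1A and the eIF2 GTPase with initiator tRNA. The exchange factor eIF2B then recharges spent eIF2 with GTP, and this step is the target of the starvation response that switches on GCN4. In elongation, eEF1A delivers charged tRNAs, eEF1B recharges eEF1A, eEF2 moves the ribosome along, and the ATPase eEF3 is required in fungi. Genes for the translation apparatus are known to be transcribed together with growth, and Ifh1 is a coactivator that acts with Fhl1 at ribosomal protein genes.

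YSS89 carries UASIFH1::HIS3-UASGAL1, in which the upstream element of GAL1 stands before IFH1 (UASGAL1-IFH1-13myc-TRP1), so that galactose drives IFH1. YSS37, called wild-type by the labels, has IFH1-13myc-TRP1 under its own upstream element. Both strains are MATa and carry the tagged IFH1, and both received galactose, to 2%, in log phase cultures grown at 30 °C in YPLG medium. YSS89 was sampled at times 0, 20, 30, 40 and 60 and YSS37 at 0, 30 and 60. The labels give no unit for these times, and minutes are assumed. Total RNA of 3 biological replicates for each of the 8 conditions was put on 24 Affymetrix arrays with 1 colour, and the number of arrays limits the precision. YSS37 has no array at 20 or 40 min, and 1 strain of each genotype was used.

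The deposited values are probe set intensities scaled to a common level on every array. Levels below are log2 intensities after quantile normalization, and a level of 1 probe set is not set against that of another. Changes are log2 differences between group means. A feature was called when its limma p, adjusted by the Benjamini-Hochberg method over all 5859 features of the comparison, was under 0.05, and "rose" and "fell" below mean called. The median standard error was 0.135 over the 37 entries, and 0.172 over all features, for a change or a strain difference.

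The arrays fell into 4 hybridization rounds by the hybridization time in the instrument records. Round 1 held 8 of the 9 YSS37 arrays and round 2 held the remaining one (60 min, replicate 3) with 6 YSS89 arrays. Round 3 held 7 YSS89 arrays and round 4 replicates 2 and 3 of YSS89 at time 0. On those 2 arrays the 25S rRNA probes read 313 and 90.9, against 560 to 1056 on the other 22. The ACT1 ratio of 3' to 5' signal, a measure of RNA integrity and labelling, was 1.52 to 1.58 in YSS89 at 20 min and at most 1.49 elsewhere. The labelled mating type was read from its markers. The a-cell genes STE2, STE6, MFA1, MFA2, BAR1 and AGA2 had median intensities of 48.1 to 604, whereas ASG7 stood at 4.7. The alpha-cell genes STE3, MF(ALPHA)1 and MF(ALPHA)2 had medians of 4 to 5, and SAG1 one of 25.6.

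IFH1 itself followed the labels. In YSS89 its deposited intensity was 23.0, 21.7 and 34.6 at time 0 and 1355.0, 1304.6 and 1435.7 at 20 min, and it was still 557.4, 574.9 and 584.5 at 60 min. In YSS37 it was 41.6, 39.8 and 33.3 at 60 min, against 15.9, 17.6 and 28.9 at time 0. The groups before and after galactose did not overlap in YSS89. IFH1 was 5.77 ± 0.167 log2 units higher (± SE) at 20 min than at time 0 in YSS89, with a limma adjusted p of 4.87e-16, and it also rose by 0.73 in YSS37 at 60 min.

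Over the hour in galactose the translation factors rose in both strains. In YSS89 at 60 min against time 0, 22 of the 37 entries rose and 2 fell, where 23.8% of all features rose and 19.7% fell. The 2 were HYP2 and TEF1/TEF2, whose direction turned under other scalings of the arrays. In YSS37 at 60 min against time 0, 29 rose and none fell, where 20.7% of all features rose and 20% fell. The RNA came from whole cultures, so that a change in the share of cells expressing a gene and a change in RNA per cell cannot be told apart. The median change of the entries was 0.48 in YSS89 and 0.51 in YSS37, and that of all features was 0.07 in YSS89 and 0.01 in YSS37. Of the 22 entries that rose in YSS89, 20 also rose in YSS37 (90.9%), and they were 69% of the 29 that rose in YSS37. Over all features 700 rose in both strains, 50.1% of the 1397 that rose in YSS89 and 57.7% of the 1214 that rose in YSS37. These comparisons share no array. Over the 37 entries the changes of YSS89 and YSS37 had a Pearson r of 0.54 and a Spearman rho of 0.46, as a description across genes, which are not independent replicates. Over all 5859 features r was 0.72.

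**Figure D1:**
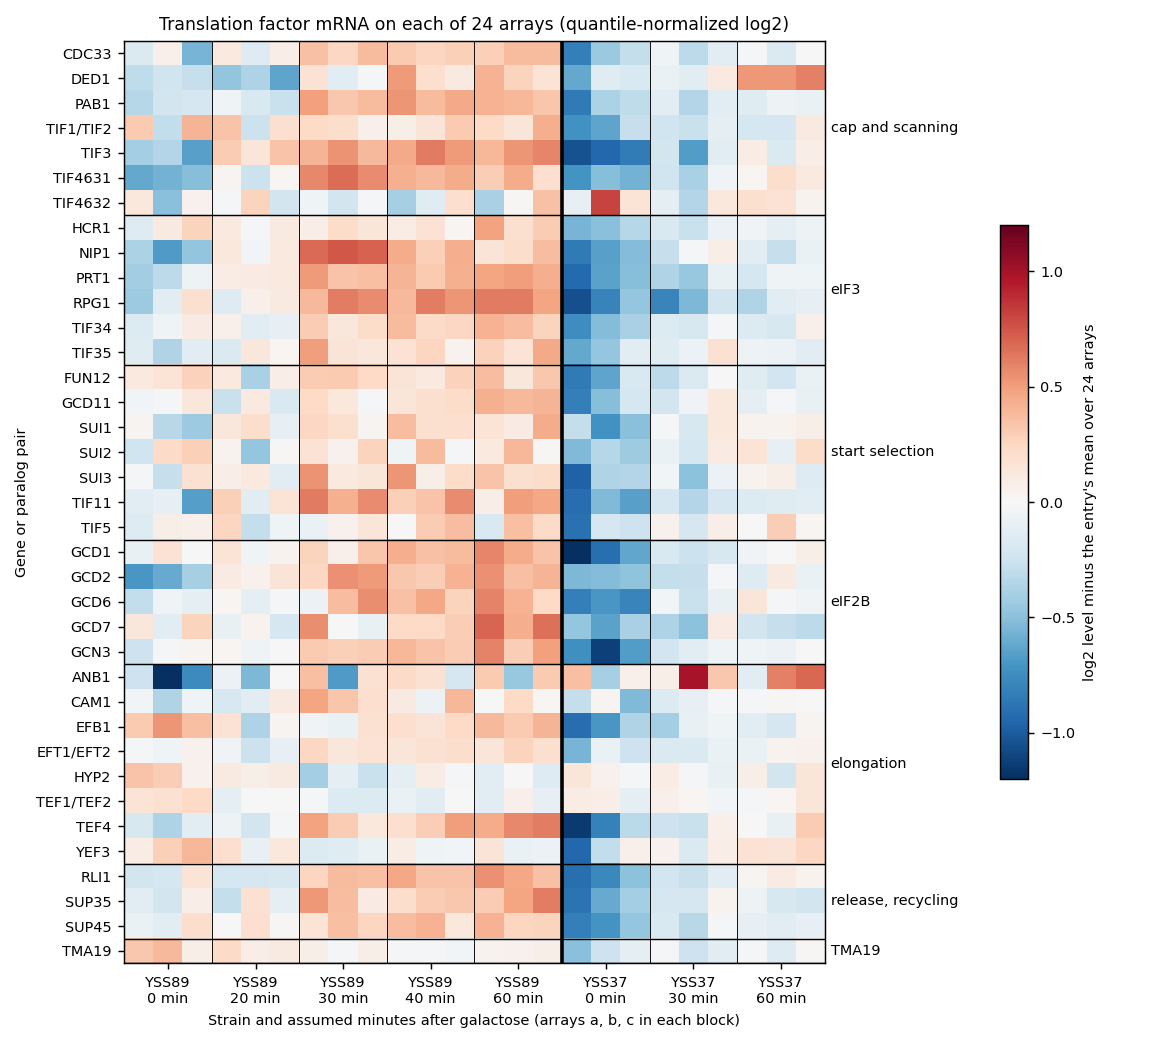
Normalized log2 level of each of the 37 entries (rows, by role) on each of the 24 arrays (columns, by strain and assumed minutes), minus the entry's own mean over 24 arrays. Most rows are lowest in YSS37 at time 0 and highest in YSS89 from 30 to 60 min. The rows HYP2, TEF1/TEF2, TMA19, YEF3 and EFB1 have their highest group mean in YSS89 at time 0. Their direction in YSS89 changes with the scaling of the arrays.

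The size of these counts depended on the scaling and on single arrays. Without replicate 1 of YSS37 at time 0, where the entries were lowest, 17 entries rose in YSS37 over the hour, and with median centring 14 rose there (31 in YSS89, none falling). With the round as a block 15 entries were called in YSS89 and 25 in YSS37. Over all 5859 features the calls in either direction were 2555 in YSS89 and 2468 in YSS37 with median centring. With the round as a block they were 1593 in YSS89 and 2185 in YSS37. Inside single rounds 12 rose in YSS89 (round 2, 1 array against 1, with the spread taken from the other groups) and 21 in YSS37 (round 1).

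Among the factors of the cap-binding complex and of scanning, 5 of 7 entries rose over the hour in YSS89 and 6 of 7 in YSS37. TIF3 encodes eIF4B, which stimulates the helicase eIF4A. Its level in YSS89 was 8.68, 8.81 and 8.86 at 60 min, against 7.87, 7.93 and 7.63 at time 0. In YSS37 it was 8.37, 8.10 and 8.36 at 60 min, against 7.23, 7.34 and 7.44 at time 0. The groups did not overlap in either strain, and TIF3 rose by 0.97 ± 0.131 in YSS89 and by 0.94 ± 0.131 in YSS37 (limma adjusted p 6.07e-06 in YSS89 and 1.03e-05 in YSS37). DED1, the helicase that unwinds structured leaders, had levels of 7.80, 7.65 and 7.55 at 60 min and 7.08, 7.15 and 7.11 at time 0 in YSS89. In YSS37 DED1 read 7.91, 7.91 and 7.99 at 60 min and 6.77, 7.24 and 7.20 at time 0. All 60 min arrays were above all time 0 arrays, and DED1 rose by 0.55 in YSS89 and by 0.87 in YSS37. CDC33, the cap-binding eIF4E, rose by 0.56 in YSS89 and by 0.46 in YSS37. PAB1, the poly(A)-binding protein, rose by 0.64 in YSS89 and by 0.42 in YSS37. With median centring CDC33 and PAB1 lost their calls in YSS37 and kept them in YSS89. The eIF4A entry TIF1/TIF2 changed by 0.13 in YSS89, without a call, and rose by 0.45 in YSS37. In YSS89 this entry was called higher as deposited (0.55) and with median centring (0.66). Its YSS37 call was lost in 9 of 18 alternative settings, median centring among them.

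The genes of eIF4G, the scaffold of the complex, are a paralog pair whose members differed in their values. TIF4631 had levels of 7.59, 7.74 and 7.49 at 60 min and 6.68, 6.72 and 6.78 at time 0 in YSS89, and in YSS37 7.31, 7.5 and 7.41 at 60 min and 6.57, 6.78 and 6.72 at time 0. The times did not overlap in either strain, and it rose by 0.88 ± 0.108 in YSS89 and by 0.71 ± 0.108 in YSS37. TIF4632 read 4.37, 4.77 and 5.11 at 60 min and 4.88, 4.25 and 4.81 at time 0 in YSS89, and in YSS37 4.95, 4.93 and 4.80 at 60 min and 4.66, 5.57 and 4.92 at time 0. Its groups overlapped in both strains. TIF4632 was not called in any of the 11 comparisons, with changes over the hour of 0.10 (95% interval -0.37 to 0.58) in YSS89 and -0.16 (-0.63 to 0.32) in YSS37. The difference between the paralogs was not tested.

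All 6 entries of eIF3, the complex that holds the initiation machinery on the small subunit, had positive changes over the hour in both strains, and 5 of 6 rose in each. The core subunits RPG1, PRT1 and NIP1 rose by 0.69, 0.73 and 0.76 in YSS89 and by 0.58, 0.59 and 0.51 in YSS37. TIF34 rose by 0.39 in YSS89 and by 0.46 in YSS37. TIF35 rose in YSS89 (0.52) and changed by 0.31 without a call in YSS37. HCR1, the loosely bound subunit, changed by 0.26 without a call in YSS89 and rose in YSS37 (0.40). The equal counts depended on the scaling. With median centring RPG1, TIF34 and HCR1 lost their calls in YSS37 (limma adjusted p 0.0761, 0.126 and 0.271). NIP1 and PRT1 kept theirs there, and all 6 entries were called in YSS89. As deposited the same entries were called as after quantile normalization in each strain.

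The factors of start codon selection and subunit joining rose in 7 of 7 entries in YSS37 and in 3 of 7 in YSS89. The 3 were SUI1 (eIF1, which guards the choice of the start codon), at 0.48 in YSS89 and 0.56 in YSS37, TIF11 (eIF1A), at 0.64 in YSS89 and 0.55 in YSS37, and GCD11 (the GTP-binding subunit of eIF2), at 0.38 in YSS89 and 0.43 in YSS37. SUI2 and SUI3, the other eIF2 subunits, changed by 0.09 and 0.29 in YSS89 without a call and rose by 0.52 and 0.55 in YSS37. TIF5, the eIF5 that activates the GTPase of eIF2, and FUN12, the eIF5B of subunit joining, changed by 0.14 and 0.09 in YSS89 without a call and rose by 0.55 and 0.40 in YSS37. The counts of this group depended on the scaling. With median centring all 7 entries lost their calls in YSS37 (limma adjusted p 0.0611 for SUI2 to 0.426 for FUN12). SUI1, TIF11 and GCD11 stayed called in YSS89 with median centring. As deposited FUN12 lost its call in YSS37 and GCD11 lost its call in YSS89. None of these 7 entries passed the test of a difference between the strains' responses.

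In eIF2B all 5 subunit genes rose in YSS89 over the hour and 4 of 5 in YSS37. GCD2 encodes one of its regulatory subunits. In YSS89 its level was 6.41, 6.23 and 6.27 at 60 min, against 5.17, 5.26 and 5.47 at time 0. In YSS37 it was 5.71, 5.97 and 5.79 at 60 min, against 5.33, 5.35 and 5.38 at time 0. GCD2 rose by 1.0 ± 0.110 in YSS89 (limma adjusted p 5.1e-07), the largest rise of the 37 entries there, and by 0.47 ± 0.110 in YSS37 (limma adjusted p 0.00186), with no overlap in either strain. GCD1, the gamma subunit, read 7.82, 7.68 and 7.58 at 60 min and 7.15, 7.41 and 7.24 at time 0 in YSS89. In YSS37 GCD1 read 7.19, 7.24 and 7.31 at 60 min and 5.92, 6.33 and 6.61 at time 0. The times did not overlap in either strain, and it rose by 0.43 in YSS89 and by 0.96 in YSS37, the largest rise of the entries in YSS37. GCN3, the alpha subunit that senses phosphorylated eIF2, read 7.33, 7.03 and 7.23 at 60 min and 6.49, 6.72 and 6.77 at time 0 in YSS89, and 6.69, 6.67 and 6.74 at 60 min and 6.0, 5.62 and 6.07 at time 0 in YSS37. Its times did not overlap, and it rose by 0.54 in YSS89 and by 0.80 in YSS37. GCD6, the catalytic subunit, rose by 0.57 in YSS89 and by 0.79 in YSS37, and GCD7 rose by 0.50 in YSS89 and changed by 0.23 without a call in YSS37. As deposited GCD1 and GCD7 lost their calls in YSS89 (limma adjusted p 0.116 and 0.0817), and with median centring both kept them. Over the alternative settings the YSS89 call was lost in 4 of 20 for GCD1 and in 7 of 20 for GCD7. The YSS37 calls of this group held under both scalings.

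The elongation genes were the least uniform after quantile normalization. Over the hour 1 of 8 entries was up and 2 were down (up under other scalings) in YSS89, and 4 of 8 were up in YSS37. With the values as deposited TEF4, EFB1, EFT1/EFT2, HYP2, TEF1/TEF2 and YEF3 were called higher in YSS89. With median centring ANB1 was called higher there as well, and CAM1 was called under neither scaling. In YSS37 the 4 kept their calls as deposited, and EFT1/EFT2 lost its call with median centring. TEF4, a gamma subunit of eEF1B, read 9.81, 9.94 and 9.98 at 60 min and 9.18, 9.0 and 9.23 at time 0 in YSS89, and 9.36, 9.28 and 9.67 at 60 min and 8.22, 8.56 and 9.04 at time 0 in YSS37. Its times did not overlap, and it rose by 0.77 in YSS89 and by 0.83 in YSS37. Its paralog CAM1 read 8.80, 9.03 and 8.82 at 60 min and 8.76, 8.43 and 8.74 at time 0 in YSS89, and 8.78, 8.81 and 8.79 at 60 min and 8.51, 8.83 and 8.26 at time 0 in YSS37. CAM1 lay higher at 60 min on all YSS89 arrays and overlapped in YSS37, and neither change passed the test (0.25 in YSS89 and 0.26 in YSS37). A dimmer probe set of TEF4 changed by 0.93 in YSS89 and by 0.52 in YSS37.

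The eIF5A pair eases translation through difficult stretches such as runs of proline, and ANB1 is known as the form made when oxygen is low. ANB1 was dim, at 16.3, 8.8 and 16.5 intensity units at 60 min and 10.6, 5.1 and 6.8 at time 0 in YSS89, and at 11.0, 22.0 and 20.3 at 60 min and 15.0, 8.0 and 12.3 at time 0 in YSS37. Its arrays overlapped, and it was called only in YSS89 at 40 min (0.81, limma adjusted p 0.045). HYP2, the form of aerobic growth, had levels of 11.82, 11.94 and 11.79 at 60 min and 12.29, 12.24 and 12.00 at time 0 in YSS89, and in YSS37 of 12.02, 11.73 and 12.09 at 60 min and 12.09, 12.00 and 11.92 at time 0. HYP2 fell by 0.33 in YSS89 after quantile normalization but was 0.41 higher with the values as deposited and 0.52 higher with median centring. In YSS37 it changed by -0.06, and its times overlapped.

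EFT1/EFT2, the translocase eEF2, changed by 0.21 without a call in YSS89 (0.63 as deposited) and rose by 0.30 in YSS37. That YSS37 call was lost in 7 of 18 alternative settings. YEF3, the fungal ATPase eEF3, changed by -0.25 without a call in YSS89 (0.49 as deposited) and rose by 0.59 in YSS37. EFB1, the catalytic subunit of eEF1B, changed by -0.03 without a call in YSS89 (0.74 as deposited) and rose by 0.56 in YSS37. A dimmer probe set of EFB1 changed by -0.36 in YSS89 and by 0.19 in YSS37, without a call in either strain. The YSS37 call of EFB1 was lost with the mean of its probe sets.

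The release factors and RLI1 rose together in both strains, 3 of 3 in each. SUP45, which recognises stop codons, rose by 0.32 in YSS89 and by 0.55 in YSS37. Its GTPase partner SUP35 rose by 0.56 in YSS89 and by 0.47 in YSS37. RLI1, the ATPase that splits the ribosome after termination, rose by 0.55 in YSS89 and by 0.78 in YSS37. The YSS89 call of SUP45 was lost in 10 of 20 alternative settings, the values as deposited among them (limma adjusted p 0.083). With median centring SUP35 lost its call in YSS37 (limma adjusted p 0.225). RLI1 kept its calls in both strains under these scalings.

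**Figure D2:**
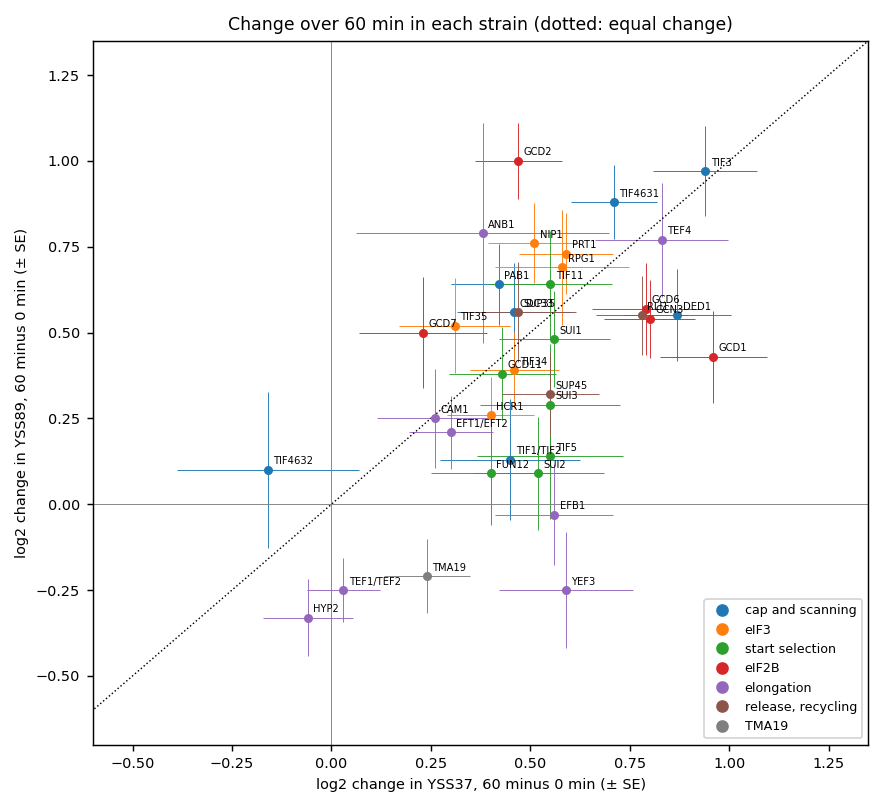
Log2 change over 60 min in YSS89 (vertical axis) and in YSS37 (horizontal axis) for the 37 entries, with bars of 1 standard error and colours by role; the dotted line marks equal change. GCD2 lies above the line (1.0 in YSS89 and 0.47 in YSS37), YEF3 lies below it (-0.25 in YSS89, a sign that turns with the scaling, and 0.59 in YSS37), and TIF3 lies close to it (0.97 in YSS89 and 0.94 in YSS37).

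In YSS89 a few factors had risen by 20 min and many more by 30 min. At 20 min 5 of 37 entries had risen and 1 had fallen, where 7.8% of all features were higher and 10.2% lower. At 30 min 17 had risen and 3 had fallen (22.5% and 23.3% of all features), and at 40 min 21 had risen and 2 had fallen (23.8% and 21.4%). All the falls were of EFB1, HYP2, TEF1/TEF2 or TMA19 and turned to positive changes as deposited and with median centring. For EFB1 at 20 min these were only 0.03 and 0.20, neither of them called. The median change of the entries was 0.06 at 20 min and 0.31 at 30 min, and then 0.36 at 40 min and 0.48 at 60 min, and that of all features stayed between -0.01 and 0.07. At the same times the entries' medians were 0.11, 0.42, 0.41 and 0.45 as deposited and 0.28, 0.58, 0.52 and 0.56 with median centring, and the steps between these times were not tested. In YSS37 at 30 min 18 entries had risen and none had fallen, where 14% of all features rose and 12% fell, with a median of 0.39. Single arrays moved some of these counts: 15 entries were called in YSS89 at 40 min without replicate 1 of that time, 9 in YSS37 at 30 min without replicate 1 of its time 0, and 8 without replicate 3 of its 30 min.

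The 5 entries up at 20 min were TIF3 (0.73), GCD2 (0.67), NIP1 (0.58), TIF4631 (0.49) and PRT1 (0.37). IFH1 had its highest mean intensity at this time. GCD2 read 5.96, 5.92 and 6.02 at 20 min, against 5.17, 5.26 and 5.47 at time 0, with no overlap. Its rise had a limma adjusted p of 2.96e-04 and was called in all 20 alternative settings, with values of 0.51 to 0.80. TIF4631 read 7.32, 7.03 and 7.31 at 20 min, 7.87, 7.96 and 7.86 at 30 min, 7.72, 7.68 and 7.74 at 40 min and 7.59, 7.74 and 7.49 at 60 min. NIP1 read 6.52, 6.22 and 6.42 at time 0, 7.02, 6.86 and 7.01 at 20 min, 7.58, 7.64 and 7.60 at 30 min, 7.34, 7.18 and 7.33 at 40 min and 7.05, 7.11 and 7.27 at 60 min. TIF4631 and NIP1 thus stood highest at 30 min, where they were 1.17 and 1.22 above time 0, and the step down after 30 min was not tested. With the round as a block, GCD2 was the 1 entry still called at 20 min, and this was also the case inside round 2, where each group is 1 or 2 arrays.

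EFB1 was the entry that fell at 20 min, by 0.46, with levels of 11.36, 10.82 and 11.22 at 20 min and 11.50, 11.72 and 11.55 at time 0. The arrays did not overlap, but the values as deposited differed by only 0.03 and those with median centring by 0.20 in the other direction. A dimmer probe set of EFB1 fell by 1.06 at 20 min after quantile normalization. The ACT1 ratio was highest at this time, and its part in the result was not tested.

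**Figure D3:**
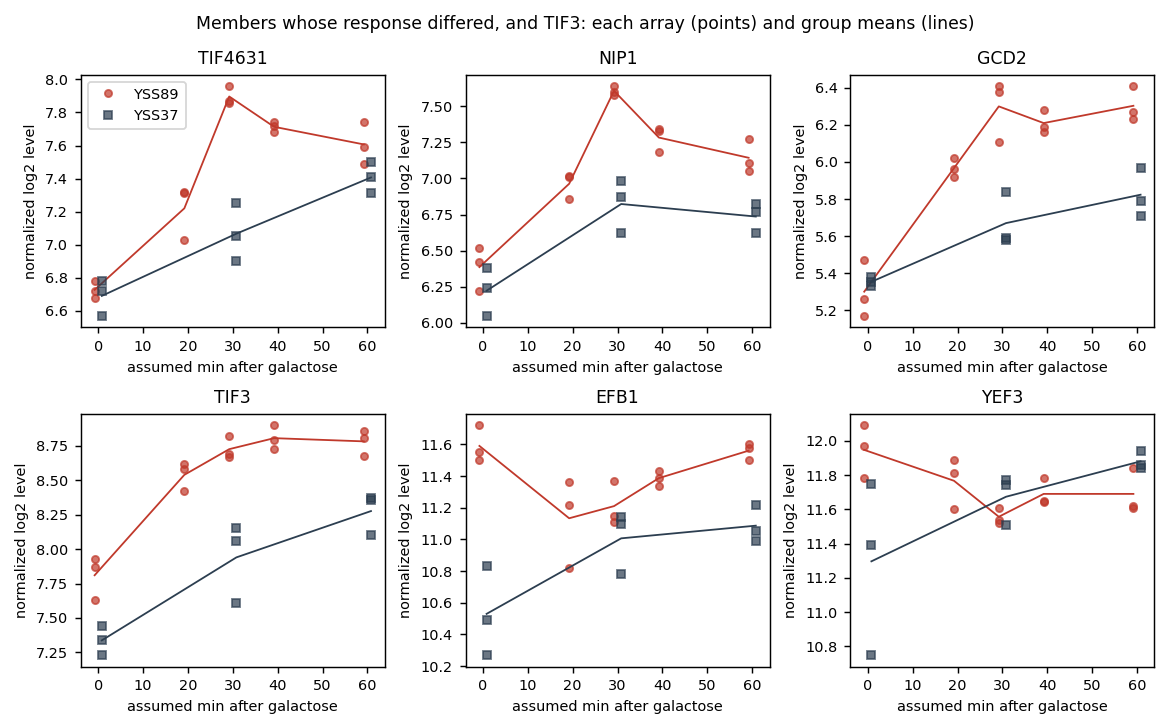
Normalized log2 level on each array (points, 3 per time and strain) and group means (lines) against assumed minutes for the 5 entries with a called response difference and for TIF3; YSS89 points are circles and YSS37 points squares, and the vertical axes do not start at 0. TIF4631 and NIP1 peak at 30 min in YSS89 at 7.86 to 7.96 and 7.58 to 7.64, whereas the downward course of EFB1 and YEF3 in YSS89 depends on the scaling.

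Before galactose the translation factors were higher in YSS89 than in YSS37, while IFH1 differed by 0.01 (95% interval -0.34 to 0.36). At time 0, 21 of 37 entries were higher in YSS89 and none lower, where 17.4% of all features were higher and 10.4% lower, and the median difference was 0.51 for the entries and 0.04 for all features. At 30 min 23 were higher and none lower (23% and 19.9% of all features), and at 60 min 22 were higher and none lower (16.3% and 11.7%), with medians of 0.42 and 0.40. The differences at time 0 were led by EFB1 (1.06), GCD1 (0.98) and GCN3 (0.76), followed by FUN12 (0.74), and covered 4 of 6 eIF3 entries, 4 of 5 eIF2B entries and 3 of 3 release and recycling genes. GCD1 read 7.15, 7.41 and 7.24 in YSS89 and 5.92, 6.33 and 6.61 in YSS37 at time 0, and EFB1 read 11.50, 11.72 and 11.55 in YSS89 and 10.27, 10.49 and 10.83 in YSS37. Neither gene overlapped between the strains, and the limma adjusted p was 2.72e-05 for GCD1 and 3.25e-05 for EFB1. Those that did not differ beyond the spread at time 0 included TIF4631 (0.04), DED1 (0.04) and GCD2 (-0.05, 95% interval -0.28 to 0.18).

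No round holds time 0 arrays of both strains, and with the round as a block none of the 37 entries was called at time 0 (median difference 0.32, median standard error 0.283 over the entries) and 1 was called at 30 min and 1 at 60 min. Over all 5859 features that fit called 19 at time 0 (1627 without the block), 599 at 30 min and 469 at 60 min. In that fit the strains are linked through 1 array only, replicate 3 of YSS37 at 60 min. That array, like all YSS37 arrays, has a chip lot that is recorded for no YSS89 array. This lot differs by 1 digit from that of some YSS89 arrays, and the records do not say whether that is a typing slip or another lot. Recorded lot and strain thus cannot be told apart. Median centring left 3 entries higher and 4 lower at time 0, with the median of all features moved to -0.17 (0.20 as deposited) and that of the entries to 0.05 (0.42 as deposited). Inside round 2 the 60 min comparison is 1 array against 1, with the spread taken from the other groups, and none was called. Single arrays also moved the counts: 15 entries were called at 30 min without replicate 1 and 13 without replicate 2 of YSS37 at that time, and at 60 min 12 without replicate 1 of YSS89 and 14 without replicate 2 of YSS37.

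**Figure D4:**
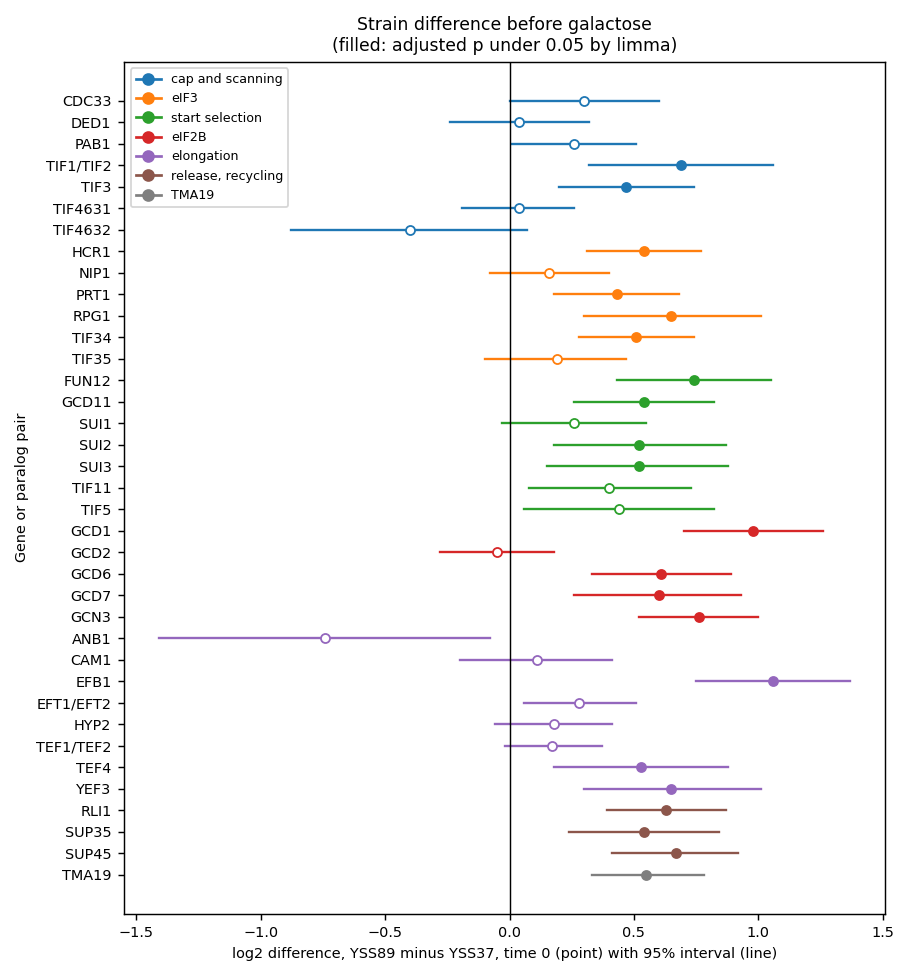
Log2 difference of YSS89 minus YSS37 at time 0 for the 37 entries (rows, by role), with 95% intervals from limma and filled points for calls. All filled points lie to the right of 0, from 0.43 for PRT1 to 1.06 for EFB1, after quantile normalization; with median centring TMA19 lies at -0.01, and HYP2 (0.18 here) and TEF1/TEF2 (0.17 here) turn to -0.44 and -0.41.

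Few factors passed the test of a difference between the strains' responses, taken as the change in YSS89 minus the change in YSS37. At 30 min 3 entries responded more in YSS89 and 2 less, where 6.93% of all features had a higher and 10.9% a lower response. At 60 min 1 responded more and 1 less (5.44% and 8.26% of all features). The median response difference of the entries was -0.09 at 30 min and -0.08 at 60 min, with a median standard error over the entries of 0.191.

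The 3 with the larger response at 30 min were TIF4631 (0.79 ± 0.153, limma adjusted p 0.00143), GCD2 (0.68 ± 0.155, 0.00486) and NIP1 (0.62 ± 0.164, 0.0131). At 30 min GCD2 read 6.11, 6.41 and 6.38 in YSS89 and 5.58, 5.59 and 5.84 in YSS37, and at time 0 the strains overlapped. TIF4631 at 30 min read 7.87, 7.96 and 7.86 in YSS89 and 7.05, 6.90 and 7.25 in YSS37, again from overlapping levels at time 0. NIP1 at 30 min read 7.58, 7.64 and 7.60 in YSS89 and 6.62, 6.87 and 6.98 in YSS37. All YSS89 arrays of these 3 genes were above all YSS37 arrays at 30 min. At 60 min GCD2 kept a response difference of 0.53 (limma adjusted p 0.0295), and those of TIF4631 (0.16) and NIP1 (0.24) did not pass. The call of TIF4631 at 30 min held in all 25 alternative settings, and that of GCD2 at 30 min in all but the values as deposited (limma adjusted p 0.0886). The call of NIP1 at 30 min was lost in 4 of 25 settings, the round as a block and the values as deposited among them, and that of GCD2 at 60 min in 9 of 25.

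EFB1 and YEF3 responded less in YSS89 at 30 min, by -0.86 (limma adjusted p 0.00778) and -0.77 (0.0308), and YEF3 also at 60 min, by -0.84 (0.0251). YEF3 read 11.52, 11.54 and 11.61 at 30 min and 11.78, 11.97 and 12.09 at time 0 in YSS89, and 11.74, 11.51 and 11.77 at 30 min and 10.75, 11.39 and 11.75 at time 0 in YSS37. At time 0 all YSS89 arrays of YEF3 were above the YSS37 arrays, and at 30 min the strains overlapped. With median centring the response differences at 30 min became 0.26 for EFB1 and 0.31 for YEF3, and as deposited that of YEF3 was 0.02. The count at 60 min moved with single arrays: it was 0 without replicate 3 of YSS37 at 60 min, 5 without replicate 3 of YSS37 at time 0, and 1 without replicate 1 of YSS37 at 60 min, replicate 2 of YSS37 at time 0, replicate 2 of YSS89 at time 0 or any 1 of the YSS89 arrays at 60 min. At 30 min 8 entries were called without replicate 3 of YSS37 at time 0.

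The direction of the brightest factors depended on the scaling. Of the 37 entries 7 had a mean deposited intensity above 1000 over the 24 arrays, a limit chosen after the values were seen: HYP2, YEF3, TEF1/TEF2, TMA19, EFB1, EFT1/EFT2 and TIF1/TIF2, from 1438 to 4006. In YSS89 at 60 min against time 0 their median change was -0.21 after quantile normalization, 0.49 as deposited and 0.60 with median centring. The other 30 entries, from 13.3 to 701, had medians of 0.54, 0.44 and 0.54 under the same scalings. For the YSS37 hour the bright entries had medians of 0.30, 0.43 and 0.25. TEF1/TEF2, the eEF1A genes, show this on single arrays: their deposited intensity in YSS89 was 3321.7, 3514.6 and 3527.0 at 60 min and 2517.1, 2380.2 and 2553.1 at time 0, all higher at 60 min, whereas their normalized levels were 11.45, 11.64 and 11.48 at 60 min and 11.74, 11.76 and 11.82 at time 0, all lower at 60 min. In YSS37 the levels were 11.56, 11.60 and 11.72 at 60 min and 11.67, 11.66 and 11.46 at time 0, with overlap. The 99th percentile of deposited intensity on an array was 1764 to 1793 in YSS89 at time 0, 2349 to 2553 at 20 min and 3150 to 3405 at 30 min, then 2961 to 3056 at 40 min and 2731 to 2960 at 60 min. In YSS37 it was 1967 to 2035 at time 0, 2106 to 2545 at 30 min and 2298 to 2594 at 60 min. Quantile normalization sets this upper end equal on all arrays, so the called falls of HYP2, TEF1/TEF2, EFB1 and TMA19 in YSS89 are falls relative to other bright probe sets. Mean deposited intensities of all 4 were higher at 60 min than at time 0, but EFB1 was called lower at 20 and 30 min and TMA19 at 40 min. As deposited EFB1 changed by 0.03 at 20 min, without a call and with overlapping arrays, and by 0.51 at 30 min. The mean deposited intensity of TMA19 was 3253 at 40 min and 2359 at time 0.

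**Figure D5:**
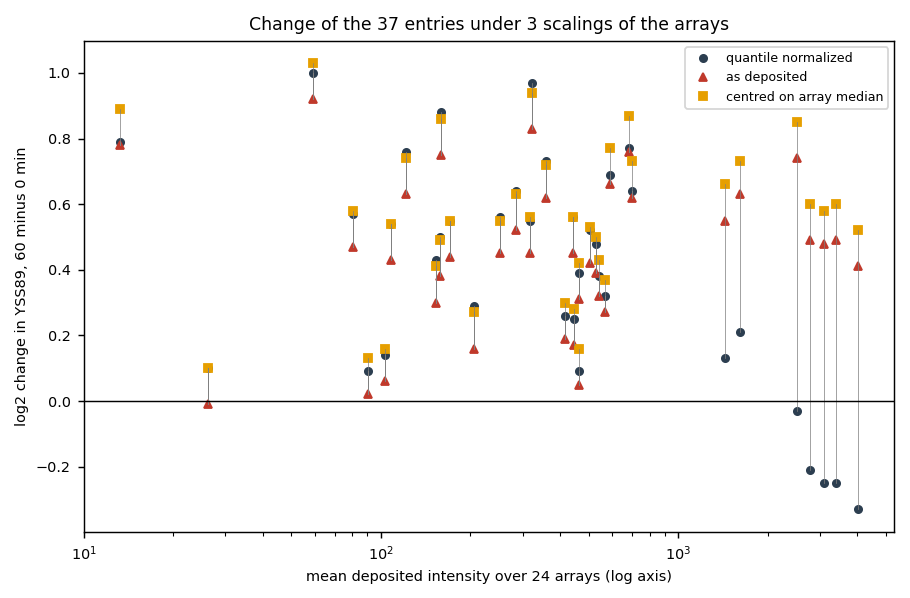
Log2 change in YSS89 at 60 min against time 0 for the 37 entries (vertical axis) against their mean deposited intensity over 24 arrays (log axis), with 3 symbols for the quantile-normalized values, the values as deposited and the median-centred values. The symbols lie close together for entries up to an intensity of 701 and part for the 7 entries above 1000, with medians of -0.21, 0.49 and 0.60.

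Other genes around translation, in 5 lists of 48 genes of which 44 were measured, gave 26 rises and 4 falls over the hour in YSS89 and 23 rises and 2 falls in YSS37. Of the 14 measured genes that modify translation factors, 8 rose in YSS89 and 11 in YSS37 and none fell, with medians of 0.50 and 0.77. The highest was JJJ3, a cofactor of the diphthamide modification of eEF2, at 1.19 in YSS89 and 1.99 in YSS37. Its lowest called values were DPH5 (0.46) in YSS89 and RRT2 (0.55) in YSS37, which act in the same modification. Of 9 genes for ribosome rescue and other translation NTPases, 6 rose in each strain, led by RBG1 (0.93) in YSS89 and NEW1 (1.04) in YSS37, with TMA46 (0.78) lowest among the YSS37 rises, and HEF3, the poorly expressed paralog of YEF3, fell in YSS89 (-1.05).

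Regulators of initiation rose in 6 of 8 genes in YSS89 and in 2 of 8 in YSS37. DHH1, a helicase of mRNA repression and decay, rose by 0.81 in YSS89 and changed by -0.40 without a call in YSS37, and GCN4, the starvation activator, fell by 0.51 in YSS89. In YSS37 GCN20 and YIH1 each rose by 0.46. Of 5 measured chaperone genes of the ribosome, SSZ1 and ZUO1 rose in both strains, by 0.63 and 0.58 in YSS89 and by 0.80 and 0.79 in YSS37. Of 8 other initiation and mRNA-binding genes, 4 rose and 2 fell in YSS89 and 2 rose and 2 fell in YSS37. SRO9, an RNA-binding protein of translating ribosomes, rose by 2.84 in YSS89 and by 1.60 in YSS37, and DBP1, the paralog of DED1, fell by 0.92 in YSS89 and by 1.06 in YSS37 while DED1 rose.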

How the data were processed

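Gene expression was measured on 24 Affymetrix YG_S98 arrays, 3 biological replicates for each of 8 conditions. The deposited table holds 1 linear intensity per probe set, and its 2% trimmed mean is nearly the same on every array, so the authors had scaled the arrays to a common level. The hybridization time in the instrument records gave the rounds. The chip lots recorded there were not used to define them. How probe sets were summarised is not given in the sources used here. For 2 arrays no lot is recorded.

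Of 9335 probe sets, 60 controls were left out, 6504 named 1 gene, 328 several and 2443 none. The brightest probe set was kept for each symbol entry, which left 5859 features (5656 of 1 gene, 203 of several). Intensities were transformed as log2 of the value plus 1.4 (the 10th percentile) and, since array medians ran from 4.72 to 5.15, quantile normalized. A limma 3.58.1 model (R 4.3.3) of 8 group means took in the 24 arrays with no replicate block, and 11 contrasts were tested two-sided with Benjamini-Hochberg adjustment over all features. The procedure was tested on simulated data.

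Every member may be named. Values per array are given for the 3 largest called rises and falls over the hour in each strain and in the strain difference at time 0, for called response differences and for separately measured paralogs. ANB1 values are given as intensities. Of each other list the highest and lowest called genes over the hour are named. The members and lists were chosen with earlier results of these data known.

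The labels' replicate letters gave little pairing over both strains together: of 39 pairs of same-letter arrays within a strain, 8 had deviations correlated above 0.1, and of 45 across strains 7. In YSS37 the same-letter arrays of 30 and 60 min correlated at 0.33, 0.26 and 0.18. Alternatives covered scaling, pseudocount, dim probe sets, the prior, probe set choice, blocks and single arrays. Contrasts inside 1 round were added after the data were seen. No sequence or promoter table was used here.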

Additional observations from a re-analysis of the deposited data

Results flagged for a closer look

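Response differences between the strains passed the limma test for 5 entries at 30 min or 60 min, and each is the change in YSS89 minus the change in YSS37. At 30 min the differences were 0.79 for TIF4631, 0.68 for GCD2, 0.62 for NIP1, -0.86 for EFB1 and -0.77 for YEF3. At 60 min they were 0.53 for GCD2 and -0.84 for YEF3. The positive ones kept their sign under every scaling tried, with the lowest values 0.59 for TIF4631, 0.41 for GCD2 and 0.35 for NIP1 at 30 min and 0.33 for GCD2 at 60 min. The negative ones at 30 min changed sign with median centring, and that of YEF3 at 60 min shrank to -0.02. With the round as a block TIF4631 (0.80) and GCD2 at 30 min were still called and the others were not.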

How the results depend on the processing

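Of 143 alternatives other than leaving out an array, 105 gave a count of called entries within 1.5 times the reported one and 38 did not, and the cause of the shifts was not tested unless stated. Counts below are entries called, in either direction. With median centring they were 7 for the strain difference at time 0, 15 at 30 min and 9 at 60 min, 7 and 14 for YSS37 at 30 and 60 min, 10 for YSS89 at 20 min, and 9 and 4 for the response differences at 30 and 60 min. As deposited, the response difference at 60 min had 1 call. With the round as a block, in which 1 array links the strains, counts were 0, 1 and 1 for the strain differences at 0, 30 and 60 min, 1, 12, 13 and 15 for YSS89 at 20, 30, 40 and 60 min, and 2 and 0 for the response differences. With YSS89 at time 0 as its first array alone they were 7 for the strain difference at time 0, 2, 13 and 13 for YSS89 at 20, 30 and 40 min, and 2 and 1 for the response differences; the lone array is assumed to vary like the other groups. Inside round 2 they were 0 for the strain difference at 60 min and 1, 7, 10 and 12 for YSS89 at 20, 30, 40 and 60 min. With the contrast's own groups alone in the fit, which leaves fewer arrays to estimate the spread, they were 6 for the strain difference at time 0, 4 and 15 for YSS37 at 30 and 60 min, 3 and 13 for YSS89 at 20 and 30 min, and 3 and 0 for the response differences. The response difference at 60 min had 5 calls with the dimmest 25% left out and 4 with a trended and robust prior. Counts over all 5859 features follow in the same order. With median centring they were 2115, 2419 and 1520 (strain differences), 1730 and 2468 (YSS37), 1088 (YSS89) and 1066 and 1044 (response differences). With the round as a block they were 19, 599 and 469 (strain differences), 292, 1662, 1737 and 1593 (YSS89) and 442 and 211 (response differences). With the contrast's own groups alone they were 698 (strain difference), 814 and 1614 (YSS37), 508 and 2245 (YSS89) and 537 and 319 (response differences). The response difference at 60 min had 898 as deposited and 873 with a trended and robust prior. It had 856 of 4394 features with the dimmest 25% left out. For the first array alone, single rounds and single arrays, shifts were not set against those of all features here.

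With single arrays left out, the calls ranged from 16 to 22 (strain difference at time 0), 13 to 23 (30 min) and 12 to 18 (60 min), from 8 to 21 (YSS37 at 30 min) and 17 to 31 (60 min), from 4 to 6, 15 to 21, 15 to 20 and 18 to 24 (YSS89 at 20, 30, 40 and 60 min), and from 4 to 8 and 0 to 5 (response differences at 30 and 60 min). The letters gave little pairing over both strains together, so the replicate block is given as a check only: with a replicate block by letter the count was 21 at time 0, 29 for YSS37 and 25 for YSS89 over the hour, and 3 for the response difference at 60 min. By strain and letter it was 29 for YSS37 and 24 for YSS89 over the hour, and 6 and 3 for the response differences.

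A change of sign in which either value was called was seen only for entries with a mean intensity above 1000, under values as deposited or median centring; dimmer entries also changed sign there, between values that were both uncalled (CAM1 at time 0, 0.11 and -0.32 with median centring, for example). As deposited, EFB1 in YSS89 was 0.03, 0.51, 0.60 and 0.74 at 20, 30, 40 and 60 min, and HYP2 was 0.35, 0.42, 0.49 and 0.41. TEF1/TEF2 was 0.60, 0.50 and 0.48, TMA19 0.64, 0.47 and 0.49, and YEF3 0.53, 0.53 and 0.49 at 30, 40 and 60 min. The strain difference at 30 min was 0.38 for TEF1/TEF2 and 0.44 for YEF3, and the response difference of YEF3 at 30 min was 0.02. With median centring, EFB1 was 0.20, 0.68, 0.70 and 0.85 at 20, 30, 40 and 60 min, HYP2 0.52, 0.58, 0.60 and 0.52, TEF1/TEF2 0.42, 0.76, 0.61 and 0.58, and TMA19 0.48, 0.80, 0.57 and 0.60. YEF3 was 0.70, 0.63 and 0.60 at 30, 40 and 60 min and EFT1/EFT2 0.39 at 20 min. Strain differences at time 0 were -0.33 for EFT1/EFT2, -0.44 for HYP2, -0.41 for TEF1/TEF2 and -0.01 for TMA19. Response differences at 30 min were 0.26 for EFB1, 0.64 for HYP2, 0.71 for TEF1/TEF2, 0.60 for TMA19 and 0.31 for YEF3, and at 60 min 0.61 for EFT1/EFT2 and 0.52 for TEF1/TEF2.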
